A study of Mus musculus with 12 samples.

Results

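The transcriptome described here is that of colonocytes from conventionally raised (CONV) mice, that is, mice kept with their gut microbes. It rests on 6 of the 12 arrays of the study, CONV1 to CONV6, which were chosen by their label. All came from isolated, flash-frozen colonocytes of C57BL/6 mice, carried no further treatment, and were hybridised to Illumina bead arrays as biotin-labelled cRNA. The sources used here do not give sex, age, diet or any pooling of mice. They call the 6 samples biological replicates. By the labels CONV1 to CONV3 belong to batch 1 and CONV4 to CONV6 to batch 2, without saying what the batches are. The deposited table has 15154 rows, each named by a gene. Rows were ranked by signal within each array, with rank 1 for the brightest, and no array of the other group of mice was used. A percentile rank of 100 is the brightest row of an array.

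Colonocytes are the epithelial cells that line the large intestine. Absorptive colonocytes take up water, salt and short-chain fatty acids such as butyrate, which bacteria make from fibre and which these cells burn in their mitochondria. Goblet cells between them secrete mucus, enteroendocrine cells secrete peptide hormones, and stem cells at the crypt base renew the sheet. The signal of a bead array depends on the probe as well as on the amount of RNA, so an order of ranks is an order of brightness and not of transcript numbers.

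An array of batch 1 had 7353 to 7402 detected rows and an array of batch 2 had 6306 to 6470 (detection p below 0.05 against the negative controls of that array). The median signal lay at 76.7 to 77.9 on the arrays of batch 1 and at 201 to 202 on those of batch 2. The detection p moved in steps of 1 in 1603 in batch 1 and of 1 in 936 in batch 2, so the number of controls behind it differed. No array design is named for either batch. A difference between the batches in mice, in handling or in the probe of a gene therefore cannot be told apart. Single arrays also stood apart from both others of their batch. More than 2-fold brighter there were 66 rows on CONV1, 0 on CONV2 and 0 on CONV3, and 25 on CONV4, 4 on CONV5 and 15 on CONV6. More than 2-fold dimmer were 1, 1 and 0 rows on CONV1 to CONV3 and 10, 10 and 15 on CONV4 to CONV6. The groups of genes on CONV1 and CONV4 are described below.

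Rows named for the ribosome, for ATP synthase and for the respiratory complexes were frequent among the brightest rows. Of the rows, 62 were among the 100 brightest on all 6 arrays, while 149 were so on at least 1 array. Among the 62 were 12 rows with a ribosomal protein symbol (19.4%, against 0.383% of all rows), 4 of ATP synthase (6.45% against 0.0858%) and 5 of a respiratory complex (8.06% against 0.442%). The 12 include rows named for the pseudogenes Rpsa-ps1, Rpl10-ps1 and Rpl31-ps1. Only Atp5g3 and Rpl41 were among the 10 brightest on every array.

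Atp5g3, a subunit of the membrane ring of ATP synthase, ranked 2, 2 and 1 on CONV1 to CONV3 and 4, 6 and 7 on CONV4 to CONV6. Rpl41, a protein of the large ribosomal subunit, ranked 9, 6 and 7 in batch 1 and 2, 4 and 3 in batch 2. Guca2a codes for guanylin, the peptide that colonocytes secrete to drive chloride and water into the lumen, and ranked 14, 24 and 20 in batch 1 and first on each array of batch 2. These ranks did not overlap between the batches for any of the 3 genes. That was common, since the ranks of 59.0% of all rows did not overlap, and it holds for the genes below too. Slc25a5, the carrier that exchanges ADP and ATP across the inner mitochondrial membrane, ranked 5, 5 and 9 in batch 1 and 18, 12 and 15 in batch 2. Cdhr5, a protocadherin that links neighbouring microvilli, ranked 10, 22 and 23 in batch 1 and 31, 35 and 44 in batch 2. It was brighter in rank on every array of batch 1. Zg16, a lectin of goblet cell mucus, ranked 81, 67 and 73 in batch 1 and 5, 2 and 2 in batch 2. Krt8 was also among the 62.

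**Figure D1:**
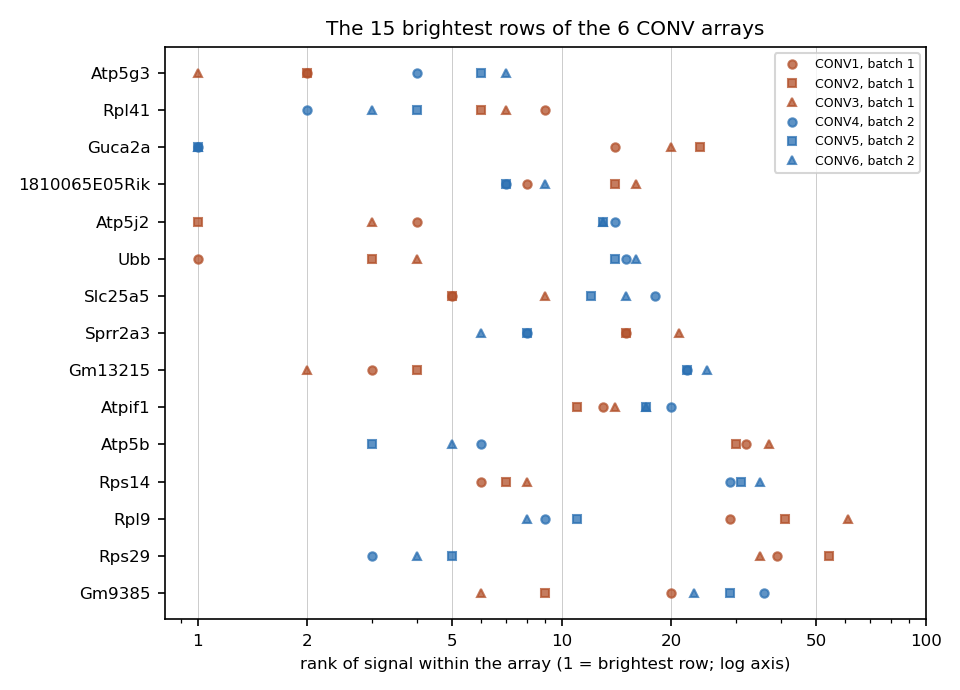
The 15 rows with the best median rank over the 6 CONV arrays, one line each; the x axis is the rank within each array on a log scale and each symbol is one array, with batch 1 in brown and batch 2 in blue. Guca2a is at rank 1 on the 3 arrays of batch 2 and between 14 and 24 in batch 1, while Atp5g3 stays between 1 and 7.

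Promoters were read for these rows because bright genes of the ribosome and of respiration are known to share short motifs near their starts. RefSeq promoters of 300 bases, 250 before and 50 after the start, were matched by symbol for 35 of the 62 genes on assembly GRCm38.p6. The motif ACTTCCG, which factors of the ETS family are known to bind, stood on either strand in 4 of the 35 (11.4%). Windows of 120 bases that end just before the start are shown for 3 of these 4, with the motif or its reverse complement in capitals.
Cox6b1: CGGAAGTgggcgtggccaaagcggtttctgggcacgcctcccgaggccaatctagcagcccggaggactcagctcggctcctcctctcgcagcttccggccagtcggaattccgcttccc
Rpl41: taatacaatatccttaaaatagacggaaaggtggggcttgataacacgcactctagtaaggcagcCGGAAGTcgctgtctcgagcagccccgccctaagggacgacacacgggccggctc
Uqcrh: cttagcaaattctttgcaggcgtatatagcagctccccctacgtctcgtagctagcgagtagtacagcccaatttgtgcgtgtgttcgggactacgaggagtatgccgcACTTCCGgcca

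The Cox6b1 window lies at chr7:30626115-30626234, the Rpl41 window at chr10:128549169-128549288 and the Uqcrh window at chr4:116075071-116075190, all 3 on the minus strand. Cox6b1 codes for a subunit of cytochrome c oxidase and Uqcrh for a subunit of complex III. Over all promoters of the table the motif stood in 7.2% of genes. It stood in 16.8% of the 3860 genes with a promoter that were detected on all 6 arrays and in 4.4% of the 4207 that were detected on none. The GC box letters GGGCGG stood in 70.6% of genes detected on all 6 arrays, in 35.8% of those detected on none and in 38.2% of all promoters. The TATA letters TATAAA went the other way, with 9.38% of genes detected on all 6, 19.6% of those detected on none and 15.7% of all. The brightest genes did not follow the genes detected on all 6 in this. Of their 35 promoters, 16 (45.7%) held the GC box letters and 7 held the TATA letters. That GC box share lay below the 70.6%, and the TATA share lay above the 15.7% of all promoters. With 35 promoters these shares are rough. These motifs were searched on both strands, and a match is a description of the letters in the window.

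Rows detected on all 6 arrays numbered 4938 (32.6% of 15154), those detected on none 5924 (39.1%) and the other 4292 (28.3%) were detected on 1 to 5 arrays. On the 3 arrays of batch 1 and on none of batch 2 there were 953, and on the 3 of batch 2 and on none of batch 1 there were 258. How bright a row is and whether it counts as detected came apart for rows whose detection p lay between the steps, and the labels do not say how such rows were formed. Of the 2000 brightest rows by median rank, 15 were detected on no array, and 0 of the 15 were on the steps in both batches. Among the 1000 brightest there were 3, Slc5a8 and Myo6 included. Myo6, a motor protein of the brush border, ranked 614, 669 and 590 in batch 1 and 423, 428 and 504 in batch 2. A count of undetected rows thus also holds rows of high signal.

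The label of the cells was set against markers. Of 4 colonocyte markers, all were among the 1000 brightest rows by median rank. Krt8, the keratin of simple epithelia, ranked 40, 52 and 44 in batch 1 and 51, 50 and 76 in batch 2. Its log2 signal differed by 0.17 ± 0.11 between batch 1 and batch 2 (SE, n = 3 arrays each; limma, adjusted p = 0.204), a sign that turned with 75th percentile scaling (-0.3), and the ranks overlapped. Car4, a carbonic anhydrase on the colonocyte surface, ranked 350, 331 and 369 in batch 1 and 108, 98 and 105 in batch 2. Its log2 signal was lower in batch 1 (difference -1.30 ± 0.09, limma adjusted p = 4.03e-06). Aqp8, a water channel, ranked 995, 1009 and 1007 in batch 1 and 723, 486 and 599 in batch 2, which was also lower in batch 1 (-0.75 ± 0.14, limma adjusted p = 0.00126). Slc5a8, the sodium-coupled transporter of butyrate and other monocarboxylates, ranked 412, 447 and 446 in batch 1 and 557, 470 and 560 in batch 2. It is one of the bright rows that are called detected on no array, so its level rests on brightness alone.

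Epithelial markers filled the top of the order and markers of other tissues did not. Of 10 measured epithelial markers 9 were detected on all 6 arrays, against 32.6% of all rows, with a median percentile of 98.3 in batch 1 and 96.9 in batch 2. Vil1, the actin bundler villin of microvilli, ranked 223, 233 and 222 in batch 1 and 253, 218 and 192 in batch 2. Cldn3, a tight junction protein, ranked 259, 203 and 196 in batch 1 and 240, 196 and 208 in batch 2. Krt19, another simple keratin, ranked 84, 84 and 87 in batch 1 and 101, 117 and 125 in batch 2. The ranks of Vil1 and Cldn3 overlapped between the batches and those of Krt19 did not, like those of 59.0% of all rows. The exception was Epcam, an adhesion molecule of epithelial cells, which ranked 5903, 6073 and 6052 in batch 1 and 9210, 7325 and 11529 in batch 2 and was detected on 3 arrays.

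Of 9 measured absorptive colonocyte markers 7 were detected on all 6 arrays, against 32.6% of all rows, with medians of 97.1 and 97.4. Of 8 goblet cell markers 7 were so detected, with a median of 94.0 in both batches. Clca1, a secreted goblet cell protein, listed under its older symbol Clca3, ranked 227, 219 and 207 in batch 1 and 10, 24 and 14 in batch 2. Retnlb, a goblet cell product that acts on bacteria, ranked 129, 126 and 123 in batch 1 and 197, 246 and 128 in batch 2. Tff3, the trefoil peptide of mucus, ranked 324, 318 and 325 in batch 1 and 348, 491 and 630 in batch 2. All 3 were within the first 630 rows of each array. A row listed as Clca1 was detected on no array. Since the table uses older symbols, that row may stand for another gene. Atoh1, the transcription factor of the secretory lineage, was detected on no array.

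Of 10 enteroendocrine markers 8 were detected on all 6 arrays, against 32.6% of all rows, with medians of 64.0 and 73.7. Pyy, a hormone of the L cells of the lower gut, ranked 814, 727 and 772 in batch 1 and 587, 863 and 621 in batch 2. Of 7 stem cell markers 2 were detected on all 6 arrays (28.6%, near the 32.6% of all rows), with medians of 69.5 and 57.6. Lgr5, the receptor that marks crypt base stem cells, ranked 6474, 5941 and 6093 in batch 1 and 6226, 6428 and 6902 in batch 2 and was detected on 5 arrays. Sox9, a transcription factor of the crypt, was far brighter in rank, with 599, 674 and 667 in batch 1 and 408, 343 and 383 in batch 2. Of 8 tuft cell markers 3 were detected on all 6 arrays (37.5%, also near the share of all rows), with medians of 52.8 and 32.5.

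Markers of immune, stromal and other cells lay mostly near the middle of the order or below it. Over all rows 32.6% were detected on all 6 arrays, and the T cell share of 28.6% lay near that. Detected on all 6 arrays were 2 of 7 T cell markers (medians 33.4 and 54.5), 1 of 5 B and plasma cell markers (17.8 and 30.3) and 1 of 9 myeloid markers (31.9 and 23.6). The 1 B and plasma cell marker was Sdc1, a proteoglycan that epithelial cells also carry, and the 1 myeloid marker was Cd14. Cd14, the co-receptor for bacterial lipopolysaccharide, ranked 2438, 2221 and 2242 in batch 1 and 1762, 2226 and 2219 in batch 2. The T cell markers were Lck, a kinase, and Cd3g, a chain of the T cell receptor complex. Cd3g ranked 6331, 6203 and 6173 in batch 1 and 4085, 3498 and 4356 in batch 2. Ptprc, the marker CD45 of blood cells at large, was detected on no array, nor were Cd8a, Csf1r, Itgam, S100a8 and S100a9. None of 5 fibroblast, 4 smooth muscle, 9 endothelial, 7 neuron and glia, 3 red blood cell or 5 pancreas acinar markers was detected on all 6 arrays. In bulk samples fewer cells of a type and less RNA per cell cannot be told apart.

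**Figure D2:**
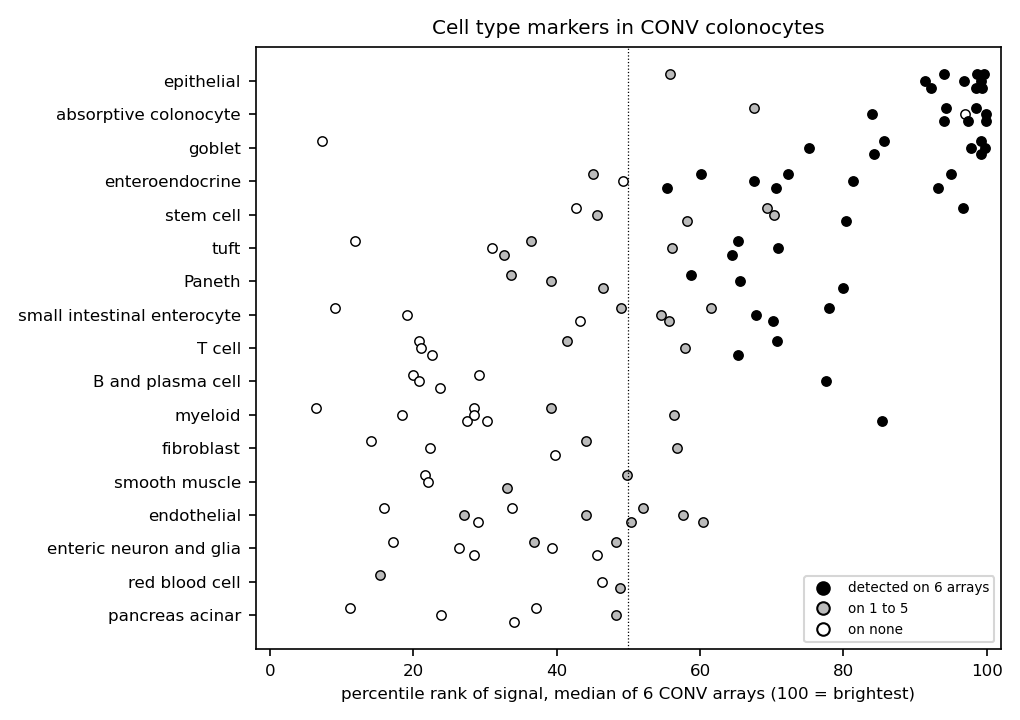
Percentile rank of each marker, as the median over the 6 CONV arrays, by cell type list; 100 is the brightest row, black points were detected on 6 arrays, grey points on 1 to 5 and white points on none, and the dotted line is the middle of the order. Of the 10 epithelial markers 9 are black, and 0 of the 5 pancreas acinar markers are.

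Paneth cells and absorptive cells of the small intestine are not part of the colon lining. Of 6 Paneth cell markers 3 were detected on all 6 arrays and of 10 small intestinal markers 3. Itln1, a lectin that binds microbial sugars, ranked 2622, 2341 and 2387 in batch 1 and 4333, 4489 and 3440 in batch 2. Lyz1, a lysozyme, ranked 8343, 7964 and 8332 in batch 1 and 3965, 4418 and 4525 in batch 2. Both differed between the batches without overlap, in opposite directions, where 59.0% of all rows had no overlap in rank. Of 25 genes known from other organs 2 were detected on all 6 arrays and 13 on none, against 32.6% and 39.1% of all rows.

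The fuel pathways of the cells stood high on every array. Of 39 measured genes of oxidative phosphorylation 33 were detected on all 6 arrays (median percentiles 96.8 and 98.2), of 13 of the citric acid cycle 10 (95.8 and 93.0), of 11 of glycolysis 9 (96.6 and 95.5) and of 19 of butyrate use 11 (94.2 and 92.0), against 32.6% and medians of 49.7 and 48.1 over all rows. Of 19 measured ribosomal protein genes of the list 14 were so detected, with medians of 99.3 and 99.2, and of 16 genes of detoxification and redox defence 12, with medians of 96.5 and 95.7. Etfa, which passes electrons from fatty acid oxidation to the respiratory chain, ranked 143, 157 and 153 in batch 1 and 248, 211 and 234 in batch 2. Hadhb, a subunit of the trifunctional enzyme that shortens fatty acids, ranked 349, 275 and 261 in batch 1 and 458, 385 and 483 in batch 2. Acss1, which makes acetyl-CoA from acetate in mitochondria, ranked 314, 367 and 359 in batch 1 and 291, 314 and 373 in batch 2. Acss1 overlapped between the batches, while Etfa and Hadhb were brighter in rank on every array of batch 1. Etfb, the partner of Etfa, ranked 240, 243 and 221 in batch 1 and 214, 156 and 170 in batch 2.

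Ldha, which converts pyruvate and lactate, ranked 52, 50 and 49 in batch 1 and 62, 59 and 70 in batch 2, and Gapdh of glycolysis 80, 81 and 86 in batch 1 and 120, 80 and 94 in batch 2. The ranks of Gapdh overlapped between the batches and those of Ldha did not. At the other end of the butyrate list, Slc16a1, a carrier of lactate and short-chain fatty acids, was detected on 1 array, and the receptor gene Hcar2 on none. Slc16a1 ranked 8878, 13984 and 10468 in batch 1 and 6946, 10424 and 10408 in batch 2.

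Ranks agreed closely within a batch and less between the batches. Over all rows Spearman's rho between 2 arrays was 0.965 to 0.973 within batch 1, 0.894 to 0.897 within batch 2 and 0.782 to 0.803 between the batches. It is a description across genes, which are not independent replicates, and arrays of a batch share whatever the batch label stands for. Over rows detected on all 6 arrays rho was 0.995 to 0.999, 0.983 to 0.988 and 0.812 to 0.829. The 100 brightest rows of 2 arrays shared 93 to 96 rows within batch 1, 90 to 94 within batch 2 and 66 to 69 between the batches. For a typical row detected on all 6 arrays the percentile rank spanned 0.94 points within batch 1 and 1.83 within batch 2, and the medians of the batches lay 3.48 points apart. More than 50 points lay between the batch medians of 198 rows, 0 of which were detected on all 6 arrays. An array had 41.6% to 48.8% of its rows detected. A row detected on all 6 thus mostly lies in the upper part of each order and can hardly show such a gap. The 0 therefore says little about agreement.

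**Figure D3:**
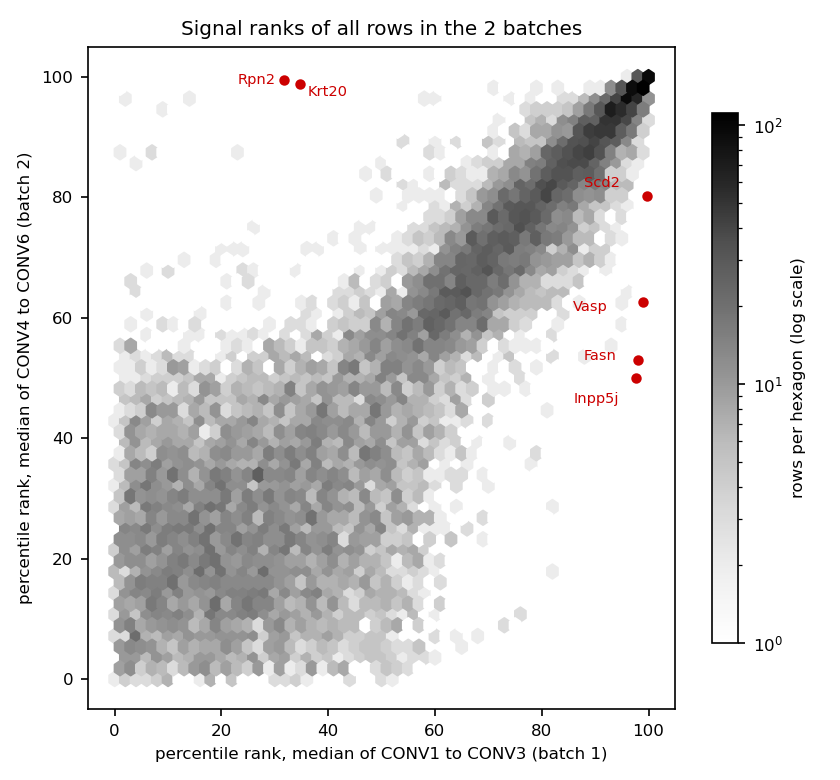
Percentile rank of each of the 15154 rows, with the median of CONV1 to CONV3 (batch 1) on the x axis and the median of CONV4 to CONV6 (batch 2) on the y axis; shading gives the number of rows per hexagon on a log scale and red points are named genes. Most bright rows lie along the diagonal, and Krt20, Rpn2, Vasp, Fasn, Inpp5j and Scd2 lie far from it.

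After background correction and quantile normalization, 7445 rows were compared between batch 1 and batch 2. Of these 5394 (72.5%) had an adjusted p below 0.05 by limma, 2969 (39.9%) higher and 2425 (32.6%) lower in batch 1. At least 2-fold apart were 2181 (29.3%), and 5715 (76.8%) had no overlap between the 3 and 3 arrays. The median size of the log2 difference was 0.61. A call is therefore the rule and not the exception here, and the p-values measure only the spread between these samples.

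The rows furthest apart included genes of secretion, lipid synthesis and the epithelial surface. Where a row was not above background on any array of a batch, the fold is a bound, set against the lowest detected signal of each array or the row's own signal, whichever was higher. Krt20, the keratin of mature surface colonocytes, ranked 9658, 10803 and 9905 in batch 1 and 143, 162 and 178 in batch 2. It was not detected in batch 1 and its signal there was at least 235-fold lower (mean log2 signal 5.0 against 13.14, limma adjusted p = 1.2e-09). Rpn2, a subunit of the enzyme that attaches sugar chains to new proteins, ranked 10421, 9379 and 10359 in batch 1 and 61, 62 and 80 in batch 2, at least 395-fold lower in batch 1 (5.0 against 13.89, limma adjusted p = 1.2e-09). Neither gene had overlapping ranks.

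Atp5j, a coupling subunit of ATP synthase, ranked 12450, 13422 and 10998 in batch 1 and 194, 172 and 185 in batch 2, at least 211-fold lower in batch 1. It was the exception among the tested genes of oxidative phosphorylation, where the next lowest difference was -1.0, of Ndufc1, a gene of complex I singled out after its value was seen. Ppif, the cyclophilin of the mitochondrial matrix, was at least 161-fold lower in batch 1, with ranks of 10211, 11059 and 9244 in batch 1 and 271, 275 and 249 in batch 2.

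In the other direction, Fasn, the fatty acid synthase, ranked 290, 294 and 300 in batch 1 and 7120, 6662 and 8577 in batch 2, a log2 difference of 7.03 ± 0.14 (limma adjusted p = 6.48e-09). In batch 2 it was detected on CONV5 alone, so its level there lay at or near background. Scd2, a fatty acid desaturase, ranked 46, 37 and 52 in batch 1 and 2986, 3499 and 2605 in batch 2 (5.49 ± 0.18, limma adjusted p = 9.87e-08). Vasp, a protein of actin assembly, ranked 131, 152 and 143 in batch 1 and 5670, 5443 and 5892 in batch 2 (6.88 ± 0.11). All 3 were brighter on every array of batch 1. Pigr, the receptor that carries IgA across the epithelium, ranked 11, 16 and 13 in batch 1 and 807, 909 and 1145 in batch 2 (3.85 ± 0.14, limma adjusted p = 1.38e-07). Inpp5j, an inositol phosphatase, was not detected in batch 2, and its signal in batch 1 was at least 110.0-fold higher. Bsg, a chaperone of monocarboxylate carriers, was higher in batch 1 by 5.43 ± 0.09 (limma adjusted p = 4.03e-09). Of 11 tested genes of cholesterol and lipid synthesis 6 were higher and 4 lower in batch 1, with a median of 0.75, against 39.9% and 32.6% of all rows, so both counts lay near the background. Of 12 tested genes of mucosal defence, Pigr among them, 8 were higher and 1 lower, against the same 39.9% and 32.6%, with a median of 0.87.

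Genes of one cell type or pathway did not always move together. Over all rows 39.9% were higher and 32.6% lower in batch 1, and with so few members the counts that follow are given as descriptions. Of the 10 epithelial markers tested 6 were higher and 1 lower in batch 1. Among them Krt18 was higher by 1.16 ± 0.10, Cdx1, a transcription factor of intestinal identity, by 1.45 ± 0.08 and the claudin gene Cldn7 by 2.86 ± 0.14. With 75th percentile scaling the split was 4 higher and 3 lower, and the median of the list turned to -0.01, against 0.29. Of the 8 absorptive markers tested 2 were higher and 5 lower, with Ceacam1, an adhesion molecule, higher by 1.80 ± 0.12 and its relative Ceacam20 lower (-1.50 ± 0.09). Of 8 goblet markers 7 were tested, of which 2 were higher and 3 lower in batch 1, with a median of -0.2. Clca1 was lower (-1.88 ± 0.11), as was Spdef, the transcription factor that drives goblet cell maturation (-1.80 ± 0.13). Tff3 went the other way in rank and was brighter on every array of batch 1.

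Enteroendocrine genes were lower in batch 1 for 7 of the 8 tested, against 32.6% of all rows, and higher for 0, with a median difference of -1.07. Gcg, which codes for proglucagon, ranked 1791, 1350 and 1347 in batch 1 and 516, 632 and 709 in batch 2 (-1.34 ± 0.17, limma adjusted p = 0.000161). Insl5, an insulin-like peptide of the distal colon, ranked 4157, 3621 and 3731 in batch 1 and 1476, 2055 and 1078 in batch 2 (-2.17 ± 0.26, limma adjusted p = 0.000135). Neither gene overlapped between the batches, as was so for 76.8% of all tested rows. Tph1, which makes serotonin in enterochromaffin cells, was lower in batch 1 (-1.98 ± 0.17), as was Chga, a protein of secretory granules (-1.16 ± 0.12). Pyy was not called, with a limma adjusted p of 0.316.

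Immediate early genes, which are known to switch on within minutes of a stimulus, were lower in batch 1 for 10 of 13 tested and higher for 1, against 32.6% and 39.9% of all rows, with a median of -1.13. Fos ranked 508, 435 and 434 in batch 1 and 206, 230 and 202 in batch 2 (-0.92 ± 0.10, limma adjusted p = 5.51e-05). Egr1, a zinc finger factor, ranked 1023, 918 and 1027 in batch 1 and 171, 205 and 177 in batch 2 (-2.16 ± 0.10). Zfp36, which marks messages for decay, ranked 1985, 1717 and 1812 in batch 1 and 471, 436 and 460 in batch 2 (-2.12 ± 0.10). None of these 3 overlapped, as was so for 76.8% of all tested rows. Fosb and Atf3, chosen after their values were seen, had the largest differences of the list, -4.03 ± 0.18 and -2.75 ± 0.20. The exception was Klf6, higher in batch 1 by 1.29 ± 0.08.

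Of 8 tested genes of the circadian clock 4 were higher and 3 lower in batch 1, near the 39.9% and 32.6% of all rows. Arntl and Npas2, partners in the activating complex of the clock, were higher in batch 1 by 1.70 ± 0.19 and 1.42 ± 0.14 (limma adjusted p = 7.68e-05 and 4.04e-05). Arntl ranked 1957, 2067 and 1891 in batch 1 and 3423, 3844 and 4347 in batch 2. Per1 and Dbp, both driven by that complex, were lower in batch 1, with differences of -2.35 ± 0.10 and -2.12 ± 0.12 (limma adjusted p = 4.24e-07 and 1.72e-06). Ciart, another clock output gene, was not detected in batch 1 and was at least 2.49-fold lower there. Dbp ranked 4257, 4629 and 4675 in batch 1 and 2038, 2175 and 2175 in batch 2. Tef, an output gene of the clock, was not detected in batch 2 and was at least 2.0-fold higher in batch 1 (limma adjusted p = 0.000644). The labels give no time of day of collection.

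Of 13 tested genes of the cell cycle 4 were higher and 2 lower in batch 1, against 39.9% and 32.6% of all rows, with a median of 0.15. With array weights 5 were higher and 2 lower. Mcm5, a subunit of the replicative helicase, ranked 821, 1022 and 960 in batch 1 and 1143, 1089 and 1036 in batch 2. Plk1, a mitotic kinase, ranked 2065, 2148 and 2110 in batch 1 and 1886, 2227 and 2078 in batch 2, and its ranks overlapped. Aurka, another mitotic kinase, ranked 1876, 1867 and 1865 in batch 1 and 1925, 1933 and 2099 in batch 2. The largest difference was that of Pcna, the sliding clamp of DNA polymerase, which was higher in batch 1 by 0.93 ± 0.11 (limma adjusted p = 0.000102).

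**Figure D4:**
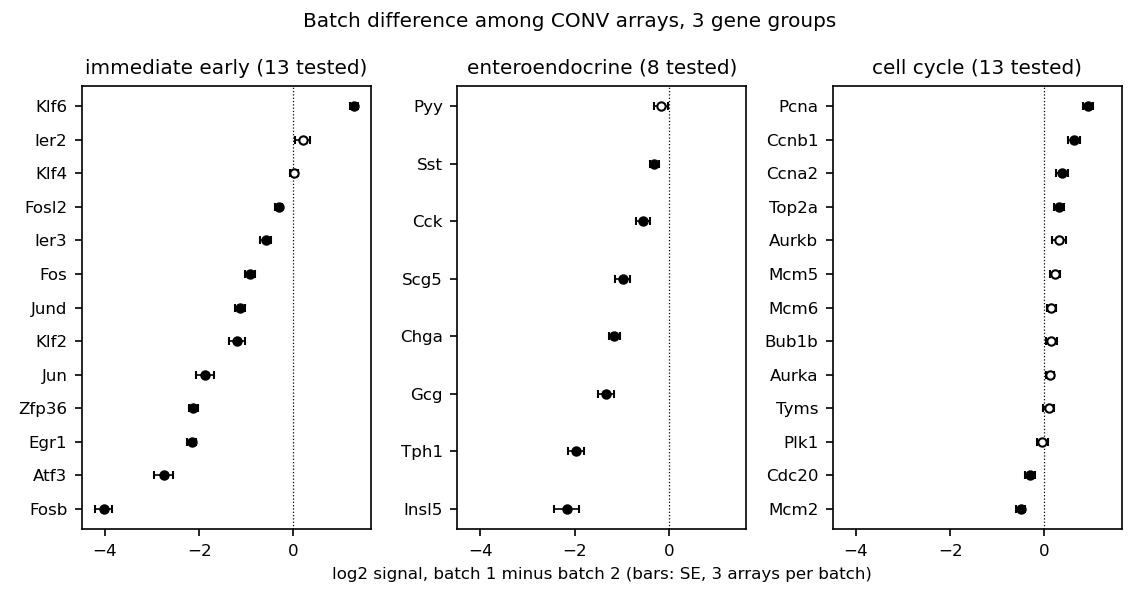
Difference of log2 signal, batch 1 minus batch 2, for the tested immediate early, enteroendocrine and cell cycle genes; bars are the SE over 3 arrays per batch, and black points have an adjusted p below 0.05 by limma. Of the immediate early genes 10 of 13 and of the enteroendocrine genes 7 of 8 are black and below 0, while the cell cycle genes lie between -0.5 and 0.93.

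CONV1 differed from CONV2 and CONV3 in a group of genes known for the liver. The genes named in this paragraph were chosen after their values were seen. Mup2, a major urinary protein that the liver secretes, ranked 69 on CONV1, 9461 on CONV2 and 10437 on CONV3, and 12190, 11690 and 11880 in batch 2. It was detected on CONV1 alone. Apoa2, a protein of high density lipoprotein, ranked 682 on CONV1, 6169 on CONV2 and 6015 on CONV3, and 6552, 8129 and 7008 in batch 2. Its signal on CONV1 was 39.8 times the geometric mean of CONV2 and CONV3, and it was detected on all 3. Serpina1d, an antitrypsin of plasma, ranked 1089, 13045 and 10988 in batch 1 and 13394, 12028 and 12017 in batch 2. Of 29 measured genes known for secretion or metabolism in the liver, 23 were more than 2-fold above both other arrays on CONV1. The median difference was 3.22 (log2), and 66 of 15154 rows at large were so far above. The list was chosen with earlier results of these data known, so its count is no separate support.

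Not every liver gene was bright on CONV1. Alb, the albumin gene, ranked 14549 on CONV1, 14532 on CONV2 and 14465 on CONV3, and Fgb, a chain of fibrinogen, ranked 15081, 14655 and 13368, and neither was detected on these arrays. The colonocyte markers did not set CONV1 apart, since Krt8, Car4, Aqp8 and Slc5a8 differed from the mean of CONV2 and CONV3 by 0.0 to 0.1 (log2). The source of the liver signal on CONV1 was not tested. Without CONV1 the counts were 4989 rows detected on the 5 other arrays, 64 rows among the 100 brightest on all of them and 4167 of 6418 rows called between the batches.

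CONV4 differed from CONV5 and CONV6 in the genes of MHC class II, the complex that presents peptides to helper T cells and that epithelial cells are known to make in response to interferon gamma. All 8 measured genes of the list were more than 2-fold brighter on CONV4 than on both other arrays of batch 2, against 25 of 15154 rows at large. Promoters are shown because class II genes are known to share an X box and a Y box, bound by RFX and NF-Y. Windows from 130 to 31 bases before the start are given for the 4 genes that hold either motif, with AACNGATG (X) and TGATTGG (Y) in capitals. The X letters were chosen after these sequences were seen.
H2-Aa: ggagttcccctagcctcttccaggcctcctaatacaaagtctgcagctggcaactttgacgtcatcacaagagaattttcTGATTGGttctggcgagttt
H2-Eb1: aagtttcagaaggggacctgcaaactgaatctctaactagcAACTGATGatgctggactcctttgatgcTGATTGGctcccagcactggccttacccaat
H2-DMb1: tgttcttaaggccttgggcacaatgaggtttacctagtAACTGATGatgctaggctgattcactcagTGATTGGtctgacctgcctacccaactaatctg
H2-DMb2: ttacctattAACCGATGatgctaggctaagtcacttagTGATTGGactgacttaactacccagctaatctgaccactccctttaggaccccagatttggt

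These windows lie on GRCm38.p6 at chr17:34287854-34287953 on the minus strand (H2-Aa), and at chr17:34305737-34305836 (H2-Eb1), chr17:34153061-34153160 (H2-DMb1) and chr17:34145119-34145218 (H2-DMb2) on the plus strand. The Y letters stood in 4 of the 5 class II genes with a RefSeq promoter and in 9.0% of all genes, on either strand. The X letters stood in 3 of the 5 and in 2.67% of all. They were chosen after these sequences were seen, so that share is no separate support. H2-DMb1 and H2-DMb2 are near copies, and signal of one can reach the probe of the other.

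H2-Aa, the alpha chain of the class II molecule I-A, ranked 653 on CONV4, 5311 on CONV5 and 5454 on CONV6, and 4632, 4239 and 4530 on CONV1 to CONV3. Its signal on CONV4 was 27.7 times the geometric mean of CONV5 and CONV6. Cd74, the invariant chain that guides class II molecules to their peptides, ranked 260 on CONV4, 2390 on CONV5 and 3953 on CONV6, and 3246, 3060 and 3151 in batch 1, a ratio of 16.5, with a detection p of 0.0503 on CONV6. H2-Eb1, a beta chain, ranked 1301 on CONV4, 4870 on CONV5 and 5295 on CONV6, and 5732, 5698 and 5445 in batch 1, a ratio of 11.4. Ciita, the master activator of class II genes, ranked 5142 on CONV4, 9933 on CONV5 and 10990 on CONV6, and 7503, 7339 and 7096 in batch 1. It was not detected on CONV5 and CONV6. CONV4 was the brightest of the 6 arrays for each of these 4 genes.

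Of 14 measured genes of the list of interferon-stimulated genes, 8 were above both CONV5 and CONV6 on CONV4 and 1 was so by more than 2-fold, with a median of 0.25 (log2) and a lowest difference of -0.57. A list of responses to interferon gamma was chosen after the values were seen, so its counts are no separate support. All 14 measured genes were above both, 6 of them by more than 2-fold, with a median of 1.17 (log2). Gbp2, 1 of the 6, and Iigp1 were detected on no array. Over all 15154 rows 5035 were above both and 25 were so by more than 2-fold. Ubd, a ubiquitin-like protein, ranked 3429 on CONV4, 5588 on CONV5 and 5426 on CONV6, and 4903, 5031 and 5170 in batch 1. Of 9 myeloid markers 4 were above both other arrays and 0 by more than 2-fold (median -0.03). Of 5 B and plasma cell markers 2 and 0 were so (median -0.06), and of 7 T cell markers 2 and 0 (median -0.03). Ptprc was not detected on CONV4. Of these markers 6 myeloid, 4 B and plasma cell and 3 T cell were detected on no array, so many had no measurable level to compare. Itgb7, an integrin gene, and Ly6c1 are in none of these lists and were chosen after their values were seen. Both were among the 25 rows more than 2-fold above on CONV4. Their log2 signals were 6.69 and 8.33 on CONV4, 5.65 and 5.58 on CONV5, and 4.85 and 6.57 on CONV6. Cd14, the 1 myeloid marker detected on all 6 arrays, was brightest on CONV4. The part of immune cells in the class II values was not tested. Between the batches 1 of the 8 class II genes, H2-DMb1, was called (-1.62 ± 0.51, limma adjusted p = 0.0209), with a median of -1.17 over the list. The call of H2-DMb1 was lost in 4 settings, with an adjusted p of 0.0506 to 0.0694 by limma. The list had 0 higher and 3 lower genes with array weights and 0 higher and 5 lower without CONV6, with a median of -1.79. Without CONV4 the split was 3 higher and 2 lower in batch 1 and the median -0.15.

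**Figure D5:**
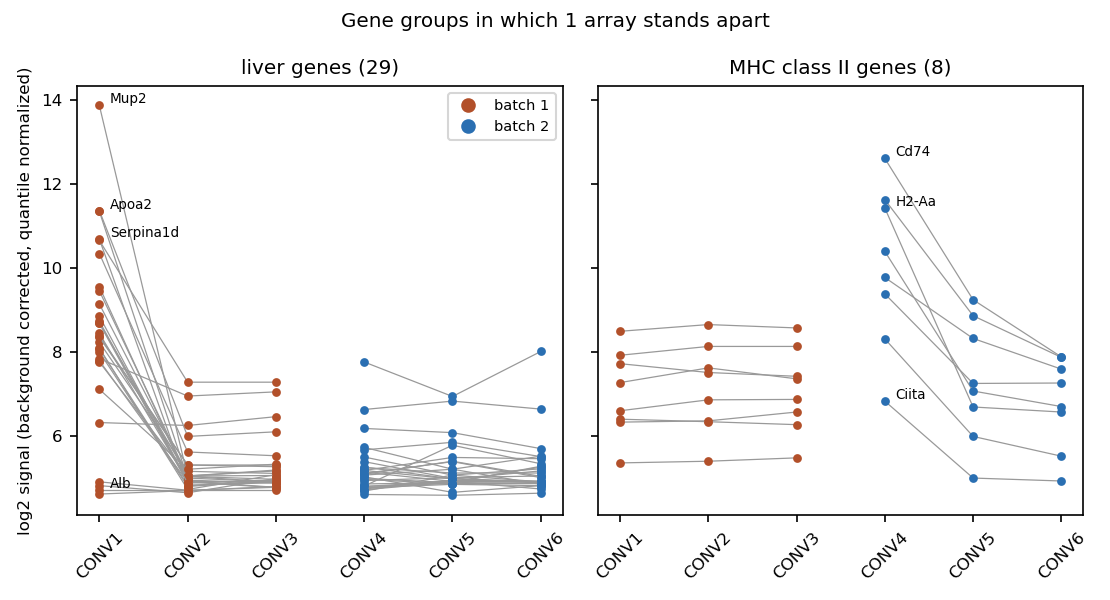
Normalized log2 signal of 29 liver genes (left) and 8 MHC class II genes (right) on each CONV array, with one line per gene within a batch; batch 1 is brown and batch 2 is blue. Of the liver genes 23 are more than 2-fold higher on CONV1 than on CONV2 and CONV3, and all 8 class II genes are so on CONV4 against CONV5 and CONV6.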

How the data were processed

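The 6 CONV arrays were used alone, with group, replicate and batch read from the labels. The deposited values were taken as the natural log of bead intensity, since after raising e to them 95.1% to 97.1% of an array's values ended at 7 significant digits, against 0.3% to 0.7% for base 2. The deposited detection p-value of each row was taken as the authors gave it. The arrays of batch 2 share 1831 to 1858 exact values with each other and those of batch 1 share 200 to 216, and what the authors did to batch 2 before deposit is not known. The submitters' processing notes name limma. Rows were named through the RefSeq gene table of GRCm38.p6: 11696 current symbols, 2532 older symbols and 287 gene IDs, while 34 rows matched more than 1 gene, 590 matched none and 15 carried names changed into dates.

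Intensities were background corrected with normexp, with negative controls inferred from the detection p and an offset of 16, put on log2 and brought to common quantiles across the 6 CONV arrays with limma 3.58.1 under R 4.3.3. The test, with lmFit and eBayes, took rows detected (p under 0.05) on 3 or more arrays, two-sided, batch 1 minus batch 2, with Benjamini-Hochberg adjustment over 7445 rows. On simulated data with these rows' means and spreads the test called 52% of rows set 1.5-fold apart and 90% of rows set 2-fold apart. It called 8 of 7245 rows left alike. In that simulation most of the 7445 rows were left alike, and background correction and normalization were not repeated. Its rates therefore do not carry over to the real comparison, where 72.5% of rows were called. Gene lists are given by counts and medians with no set test. The members, lists and named genes were chosen with earlier results of these data known. Genes were named by rule: the 30 best median ranks, of each list the 5 best and 3 worst median ranks, or all members of lists with at most 12 measured, the 20 largest called batch differences without overlap in each direction, the 10 brightest undetected rows, the 10 widest spreads within a batch among rows detected on all 6 and 4 colonocyte markers. The text says where a gene lies outside the rule. The number of arrays limits the precision. Some genes that the rule allows are not reported here.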

Additional observations from a re-analysis of the deposited data

Results flagged for a closer look

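On 133 quantities over the 6 CONV arrays, the gap of the highest or lowest array to its nearest neighbour was set against the whole range. The 95% limit, with about 1 in 20 groups past it by chance, takes all 6 arrays as 1 group. These arrays come from different batches, and 72.5% of tested rows were called between the batches. The batch difference can widen the range, so that rate does not hold here and the limit only served to pick gaps. On CONV1 the gap was 0.981 of the range for Mup2, 0.977 for Mup3, 0.977 for Serpina1d, 0.916 for Apoc1, 0.913 for Cyp2e1 and 0.855 for Apoa2, always with CONV1 highest. On CONV4 it was 0.818 for H2-Eb1, 0.782 for H2-Aa, 0.736 for H2-Ab1, 0.711 for Cd74, 0.711 for Ciita, 0.683 for H2-DMb1, 0.689 for Ubd and 0.694 for Cd14, always with CONV4 highest. On CONV6 it was 0.708 for Aurka and 0.673 for Krt8, with CONV6 lowest. Many of these genes were chosen because 1 array stood apart in them, so their number is no measure of how common such gaps are.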

How the results depend on the processing

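The count of 5394 rows that differ between batch 1 and batch 2 was 3061 of 4219 rows with a detection p below 0.01 on all 6 arrays. It was 3226 of 4527 with only rows on the single-probe steps. Fewer rows were tested in both of these settings. Under the 9 other settings that kept all arrays the count lay between 4839 and 6929. The 6929 came without a detection filter, from 15154 rows tested, of which 45.7% were called, against 72.5% of the 7445 rows. Leaving out 1 array gave 4017 to 5184. The 5924 rows detected on no array became 3316 of 8568 with only rows on the steps. The median rank correlation between the batches, 0.794, was 0.818 with only rows on the steps and 0.817 with only rows detected on all 6 arrays. The detected rows and the 100 brightest stayed within 1.5 times their counts under every setting run. With 75th percentile scaling the median of the 62 brightest rows was -0.68, against -0.08, so the brightest rows are given by rank, Krt8 with its difference too. Of 39 named differences under their alternatives, 617 of 622 values kept direction and call. Krt8, not called, turned to -0.3 with 75th percentile scaling, and H2-DMb1 lost its call in 4 settings (adjusted p 0.0506 to 0.0694). The causes were not tested. The average of CONV2 and CONV3 as 1 sample was chosen after seeing the data and gave 4870 rows. CONV2 and CONV3 were the closest pair of arrays, with a median log2 difference of 0.0608 over rows detected on all 6 arrays. CONV1 differed from CONV2 by 0.113 and from CONV3 by 0.11. Whether CONV2 and CONV3 are independent samples was not tested. No paired analysis was possible because the batches share no replicate number.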
